A study of Rattus norvegicus with 8 samples.

Results

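The effect of dexamethasone alone on rat liver mRNA was read from 4 Affymetrix Rat Genome 230 2.0 arrays, 2 of the Dex group and 2 of the vehicle group, out of 8 arrays in the series. The other 4 arrays, of rats given the LXR agonist GW3965 with or without dexamethasone, entered only the estimate of the spread between arrays. All animals were male Sprague-Dawley rats of 180 to 200 g whose age the labels do not give, and every rat was gavaged for 3 days. Rats of both groups described here received the carrier solution of GW3965 by gavage, which also preceded the injection on the last day. The vehicle group was then injected into the muscle with physiologic saline and the Dex group with dexamethasone at 1.5 mg/kg, and livers were taken 24 h later. Of the 31042 probe sets other than controls, the 16253 whose signal exceeded the array's median on 2 or more of the 8 arrays are described, and these name 9829 genes. By the labels, a and b of a group share 1 liver number, whereas the methods mention 2 injected animals, so the p-values measure only the spread between arrays, which may be technical.

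Dexamethasone is a synthetic glucocorticoid. It binds the glucocorticoid receptor (GR), which moves to the nucleus and either binds glucocorticoid response elements in DNA or acts through other transcription factors. In the liver the GR is known for raising genes that make glucose from amino acids, for dampening inflammation, and for inducing its own brakes, among them the co-chaperone Fkbp5 and the leucine zipper protein Tsc22d3. Whole liver is mostly hepatocytes by RNA, with smaller amounts from Kupffer cells, endothelium, stellate cells and blood cells.

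Values are log2 signals, 1 for each probe set and array, so a difference of 1 is a 2-fold change. Fold changes are Dex minus vehicle with n = 2 arrays per group throughout, and a probe set passed at an adjusted p under 0.05 from limma over all 16253. Replicate arrays differed by 0.089 in the median probe set in vehicle and by 0.0733 in Dex. The gap between the 3' and 5' control probe sets of beta-actin, a sign of RNA integrity, was 0.952 and 0.967 in vehicle and 0.964 and 0.938 in Dex. A group mean under 5.49, which averages the array medians, was treated as not above background. Where 1 of the 2 groups lay there, the fold change was computed from 5.49 and is a lower bound on the size of the change. In whole tissue, fewer cells of a type and less RNA per cell cannot be told apart.

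Dexamethasone changed a large part of the liver transcriptome, mostly by small amounts. Of the 16253 probe sets 6806 passed, which is 41.9%, with 2792 higher (17.2%) and 4014 lower (24.7%). The median size of these changes was 0.39 on the log2 scale, and 4995 of the 6806 were under 1.5-fold. At least 2-fold changes were found for 317 probe sets that were higher (1.95%) and 378 that were lower (2.33%), and 23 and 14 of these reached 8-fold. Read through the brightest probe set of each gene, 18% of the 9829 genes were higher and 26.5% were lower, with a median log2 fold change of -0.02 over all of them. All counts of list members below are to be read beside these 2 shares. Probe sets with a high level in vehicle liver were more often lower. Among the 4063 brightest in vehicle, from 8.42 to 14.91, 168 fell and 84 rose at least 2-fold, while among the 4064 dimmest 47 fell and 105 rose. The vehicle level enters both this split and the fold change. Probe sets under the array median in vehicle were kept only if other arrays, those of Dex among them, read higher. The filter therefore favors rises among the dimmest, which go down to 3.27. Of the 733 genes with at least 2 probe sets that passed, 699 had all of them in 1 direction. The Dex and vehicle arrays did not overlap in 11249 of the 16253 probe sets and in 6801 of the 6806 that passed.

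**Figure D1:**
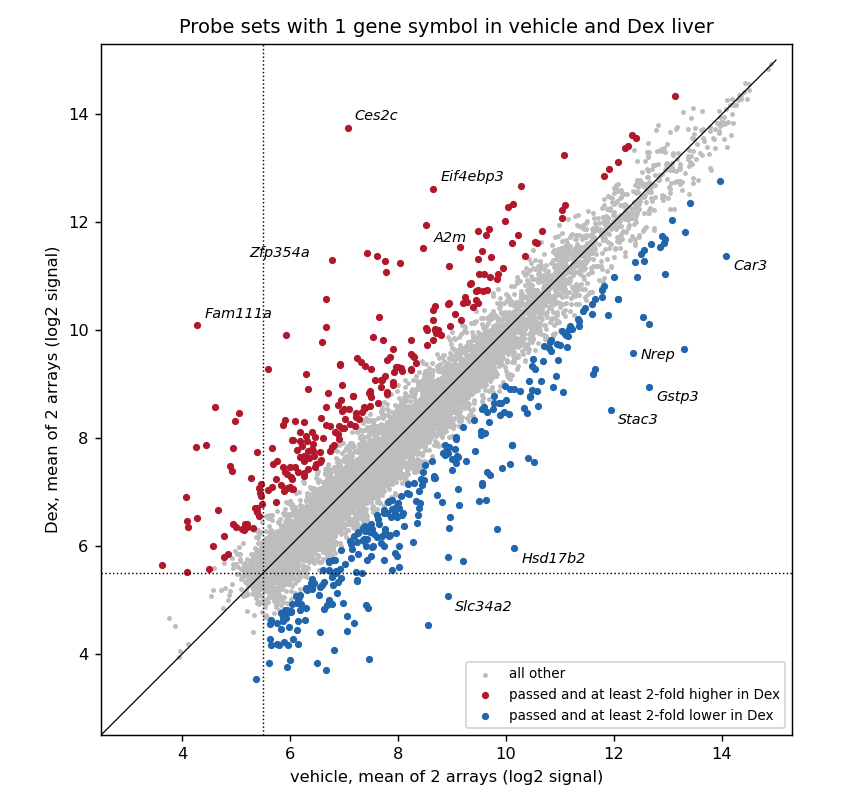
Mean log2 signal of the 2 vehicle arrays (x axis) and of the 2 Dex arrays (y axis) for the 12892 probe sets with 1 gene symbol. Red and blue points passed and changed at least 2-fold, the solid line marks equal levels and the dotted lines mark 5.49, and Ces2c stands farthest above the line.

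The largest rise was that of Ces2c, a carboxylesterase that splits esters of drugs and lipids. Its log2 signal was 7.16 and 6.97 in the vehicle arrays and 13.75 and 13.75 in the Dex arrays. Whether its probe set also reads close copies of the gene was not tested, as for the other multigene families below. The groups lay far apart, and the difference was 6.69 (SE 0.05, 103-fold, adjusted p = 1.99e-22 from limma). Its measured relatives were lower, as Ces1e changed by -1.22, Ces1d by -0.81 and Ces1c by -0.66. Fam111a, which encodes a protease linked to antiviral defence, read 4.38 and 4.18 in vehicle, below the background level, and 10.01 and 10.18 in Dex, a rise of at least 4.60 (adjusted p = 9.66e-17 from limma). The zinc finger gene Zfp354a went from 6.69 and 6.87 to 11.28 and 11.30 (log2 fold change 4.51, SE 0.07, adjusted p = 2.57e-18 from limma).

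Genes of several unrelated functions stood among the other large rises. Cyp1a1, the cytochrome P450 best known as a target of the aryl hydrocarbon receptor, read 7.36 and 7.48 in vehicle and 11.40 and 11.45 in Dex. Its fold change of 4.00 (SE 0.07, adjusted p = 7.73e-18 from limma) compared with 0.35 for Cyp1a2 and 0.38 for the receptor gene Ahr, both of which also passed. Eif4ebp3, an inhibitor of cap-dependent translation, read 8.56 and 8.74 in vehicle and 12.61 and 12.64 in Dex (log2 fold change 3.97, SE 0.06). Rgs16, which shortens G protein signals, read 5.85 and 5.31 in vehicle and 9.35 and 9.19 in Dex (log2 fold change 3.69, SE 0.13). For both genes the groups lay well apart. Sds, serine dehydratase, which turns serine into pyruvate, rose by 3.52 (SE 0.07). A2m, the protease inhibitor alpha-2-macroglobulin, rose by 3.41 (SE 0.05). The retinol binding protein gene Rbp7 and Fbxl17l1 were below background in both vehicle arrays and rose by at least 2.34 and at least 2.38. The remaining 5 of the 15 largest rises were the interferon-stimulated genes Oas1a, Usp18, Isg15 and Mx2 and the MHC class I gene RT1-N2, which rose by at least 3.08. That both Dex arrays lay above both vehicle arrays was a condition for naming these 15 genes.

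The largest fall was that of Hsd17b2, which oxidizes estradiol and testosterone to weaker steroids. It read 10.14 and 10.16 in vehicle and 6.00 and 5.90 in Dex (log2 fold change -4.19, SE 0.06, 18.3-fold lower, adjusted p = 1.4e-18 from limma). Gstp3, a glutathione S-transferase, read 12.63 and 12.68 in vehicle and 8.91 and 8.98 in Dex (log2 fold change -3.71, SE 0.04, adjusted p = 2.77e-20 from limma). That the arrays of the groups did not overlap was a condition for naming the 15 largest falls too. The Dex level of Hsd17b2 lay near the background level of 5.49 while that of Gstp3 lay well above it. Stac3, known from calcium channel coupling in muscle, read 11.96 and 11.92 in vehicle and 8.48 and 8.57 in Dex (log2 fold change -3.41, SE 0.04). Car3, carbonic anhydrase of liver, fat and muscle, read 14.05 and 14.11 in vehicle and 11.30 and 11.46 in Dex (log2 fold change -2.70, SE 0.04), and its other probe set fell by 3.65.

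The remaining large falls held transporters and conjugating enzymes. The phosphate transporter Slc34a2 went from 8.93 and 8.92 to levels below background, a log2 fold change of -3.43 or lower. The organic anion transporter Slc17a3 changed by -3.51 (SE 0.10). The sterol exporters Abcg5 and Abcg8, which work as a pair, stood at -3.14 (SE 0.20) and at -1.33 or lower. For Abcg5 the Dex arrays read 5.34 and 6.23, the widest gap between replicates among these 15 genes, and for Abcg8 both Dex arrays were below background. Inmt, an amine methyltransferase, changed by -3.49 (SE 0.11), the sulfotransferase Sult1c2a by -2.96 (SE 0.07) and the acetyltransferase Nat8 by -2.77 (SE 0.07). Serpina7, the thyroxine binding globulin of plasma, read 6.81 and 6.51 in vehicle and was below background in Dex, at -1.16 or lower. Prm1, a sperm chromatin protein whose probe set read 8.69 and 8.43 in vehicle, stood at -3.07 or lower. Nrep changed by -2.78 (SE 0.04) and Poteml2 by -2.78 (SE 0.06).

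**Figure D2:**
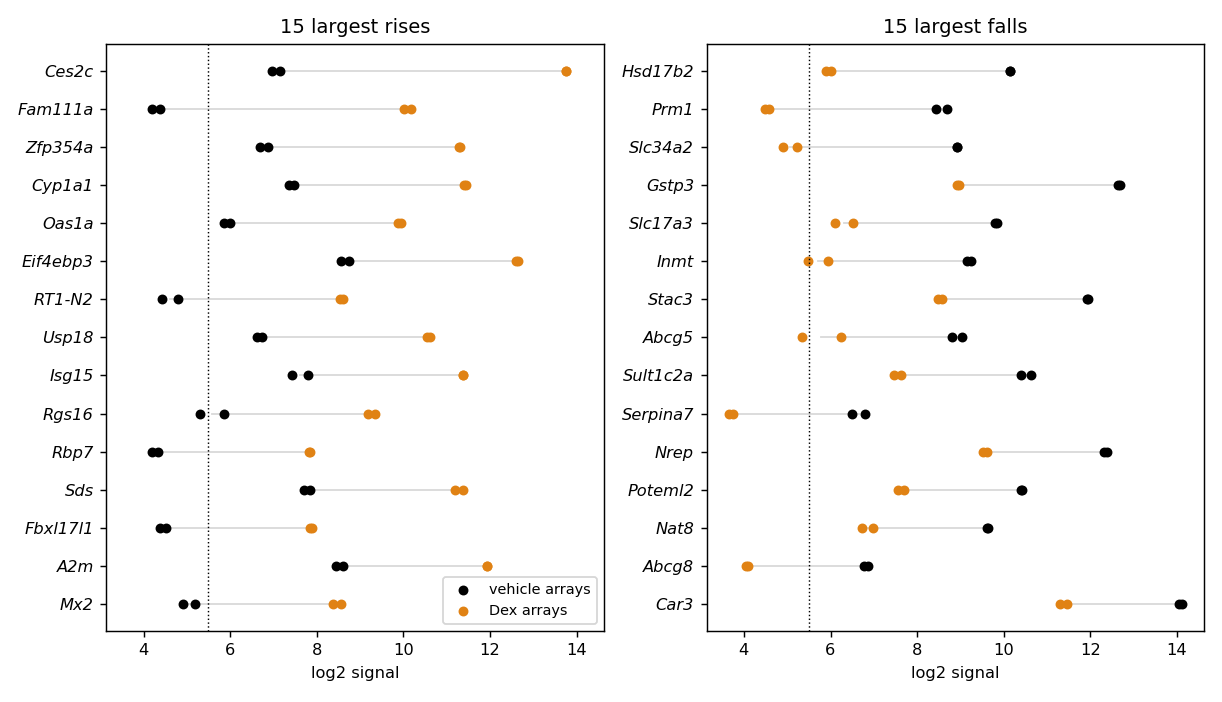
Log2 signal on each of the 2 vehicle arrays (black) and 2 Dex arrays (orange) for the 15 genes with the largest rises and the 15 with the largest falls, with a grey line between the group means. The dotted line marks 5.49, and genes were chosen so that the black and orange points do not overlap.

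Genes of the GR response were mostly higher. Of 23 tested members of a list of GR targets and feedback genes, 16 were higher and 4 lower, with a median log2 fold change of 0.97. Fkbp5, which lowers hormone binding by the GR, read 6.56 and 6.62 in vehicle and 9.83 and 9.71 in Dex (log2 fold change 3.18, SE 0.07). The cell cycle inhibitor Cdkn1a rose by 2.33 and the metallothionein Mt2A by 1.77. The 4 that fell were Serpina6 (-2.29), the plasma carrier of corticosteroids, the kinase Sgk1 (-1.30), the GR gene Nr3c1 itself (-0.75) and the co-chaperone Fkbp4 (-0.48). Nr3c1 read 9.04 and 8.90 in vehicle and 8.25 and 8.20 in Dex. H6pd, which feeds NADPH to the enzyme that reactivates glucocorticoids, rose by 1.21.

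Most genes that make and release glucose were higher, and those that use it were more often higher than lower. Of 18 tested genes of gluconeogenesis and glucose output 16 were higher (median 0.61), led by Sds at 3.52, the transaminases Gpt at 2.39 and Got1 at 2.21, and the glucose-6-phosphate transporter Slc37a4 at 1.19. Gk, glycerol kinase, was the 1 member that fell (-0.38). Of 19 genes of glucose use 9 were higher (47.4%), 2 lower (10.5%) and 8 did not pass, beside 18% higher and 26.5% lower among all genes. Pfkfb1, a bifunctional enzyme that controls glycolysis in liver, read 9.97 and 10.09 in vehicle and 12.26 and 12.29 in Dex (log2 fold change 2.24, SE 0.04). The fructose transporter Slc2a5 rose by 1.16 (SE 0.08), and Pdk4, which shuts pyruvate dehydrogenase, fell by 1.43 (SE 0.06). Amino acid breakdown had 27 of 40 members higher and 8 lower (median 0.36), with the methyl group enzymes Gnmt at 1.16 and Ahcy at 1.14. Kmo, which sends tryptophan metabolites toward NAD, went against these at -1.66, and Oat, which handles ornithine, at -1.01. Insulin signaling genes mostly did not pass, with 4 of 16 higher, among them the FOXO gene Foxo1 at 0.96 and the Akt inhibitor Trib3 at 1.01, and Irs2 lower at -0.53.

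**Figure D3:**
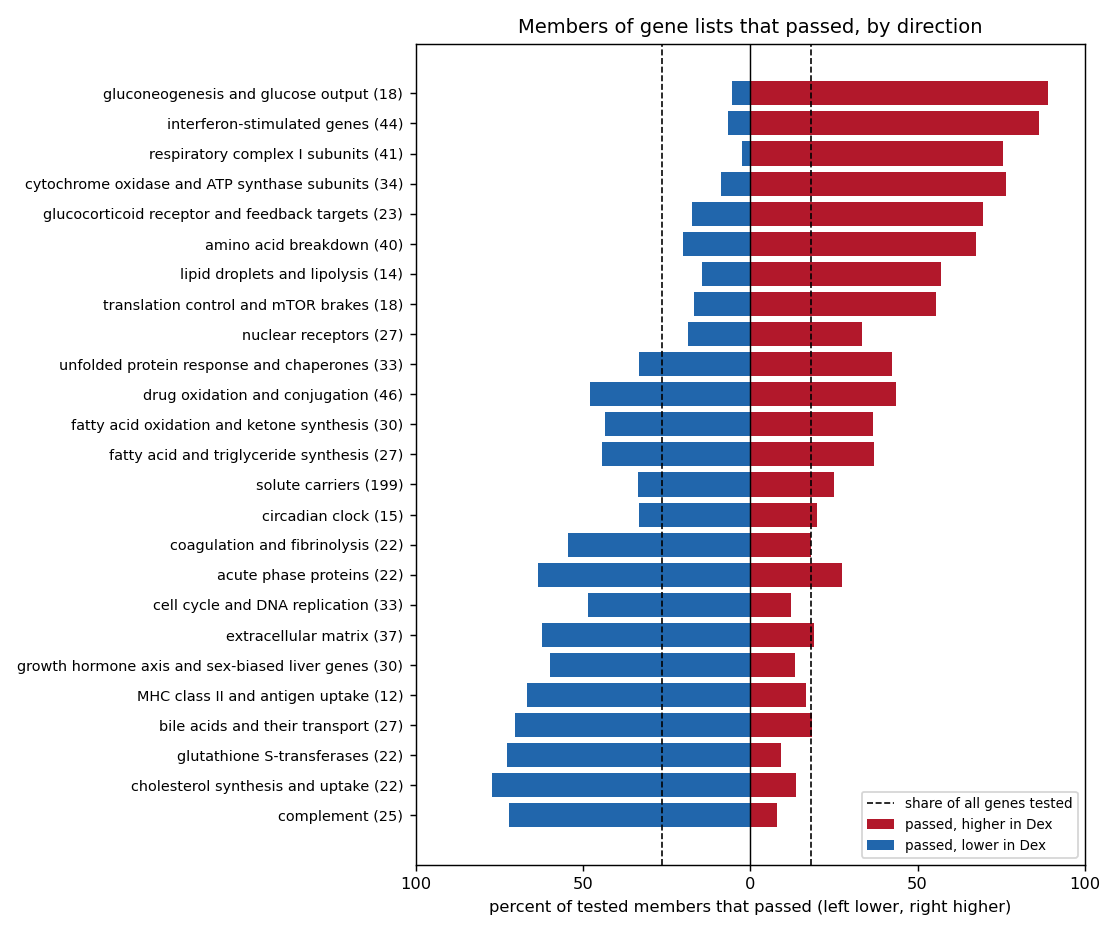
Percent of the tested members of 25 gene lists that passed, higher in Dex to the right in red and lower to the left in blue, with the number of tested members in brackets. The dashed lines mark the shares among all 9829 genes, 18% higher and 26.5% lower.

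Most of the genes counted for mitochondrial complex I, cytochrome oxidase and ATP synthase rose, by small amounts. Of 41 tested subunits and assembly factors of complex I, which passes electrons from NADH to ubiquinone, 31 were higher and 1 lower (median 0.23), against 18% and 26.5% of all genes. Ndufv2 read 10.98 and 10.96 in vehicle and 11.73 and 11.74 in Dex (log2 fold change 0.77, SE 0.04, adjusted p = 6.71e-12 from limma). Ndufa5 rose by 0.68 and Ndufb9 by 0.53, and Ndufaf5, an assembly factor, was the 1 member that fell (-0.24). Of 34 subunits and assembly factors of cytochrome oxidase and ATP synthase 26 were higher and 3 lower (median 0.34), led by Cox8a at 0.59, Atp5pb at 0.58 and Cox11 at 0.57. The 3 that fell were Atp5if1 (-0.31), which inhibits ATP synthase, Cox16 (-0.26) and Cox7a2l (-0.17). Read through the brightest probe set of each gene, none of the members of either family reached a 2-fold change. The paper lists a fall of more than 2-fold for Atpif1, the older symbol of Atp5if1. Proteins of the mitochondrial ribosome did not show this pattern, with 19 of 73 higher and 11 lower (median 0.02), and 12 higher and 14 lower without vehicle replicate a. Cytosolic ribosomal proteins had 6 of 41 higher and 16 lower (median -0.05), which became 2 and 7 without the intensity trend.

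Lipid genes split by pathway. Cholesterol synthesis and uptake had 17 of 22 members lower and 3 higher (median -0.56), with the sterol enzymes Msmo1 at -1.21, Dhcr7 at -1.15 and Cyp51 at -0.98 and, in the other direction, Lss at 0.93, Hsd17b7 at 0.87 and the regulator Insig1 at 0.45. Fatty acid and triglyceride synthesis had 10 members higher and 12 lower of 27. The phosphatidate phosphatase Lpin1 read 8.43 and 8.49 in vehicle and 11.50 and 11.53 in Dex (log2 fold change 3.05, SE 0.05), and a second probe set gave 3.29. Fasn, the enzyme that assembles palmitate, rose by 1.23. Fads2, a desaturase of polyunsaturated fatty acids, stood at -2.01 and Pnpla3, a lipid droplet protein, at -1.56 or lower. Among lipid droplet genes 8 of 14 were higher and 2 lower. Cidea, a droplet fusion protein typical of brown fat, read 6.62 and 6.70 in vehicle and 10.09 and 10.01 in Dex (log2 fold change 3.39, SE 0.07), and the lipase Pnpla2 rose by 1.49. Fatty acid oxidation was mixed at 11 higher and 13 lower of 30, with Cpt1a, the mitochondrial entry step, at 1.52 and the peroxisomal enzyme Ehhadh at -1.58.

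Bile acid genes were mostly lower, with 19 of 27 lower and 5 higher (median -0.44). The synthesis enzyme Akr1d1 read 12.10 and 12.04 in vehicle and 10.53 and 10.62 in Dex (log2 fold change -1.49, SE 0.04), and the bile acid transporter Slc10a2 changed by -1.68. Those that rose were Cyp27a1 (0.69), which starts the alternative synthesis route, Nr0b2 (0.47), Abcb11 (0.40), Nr1h4 (0.21) and Slc27a2 (0.10). Abca1, a cholesterol exporter outside this list, rose by 2.09 on its brightest probe set and fell by 0.67 on another.

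Glutathione S-transferases, which attach glutathione to reactive compounds, were mostly lower. Of 22 tested genes 16 were lower and 2 higher (median -0.41), and 5 of the 16 fell at least 2-fold. After Gstp3 the largest falls were those of Gsta3, from 7.95 and 7.81 to 5.55 and 5.54 (log2 fold change -2.33, SE 0.09), and Gstt2, from 10.02 and 10.09 to 8.46 and 8.41 (-1.62, SE 0.06). Gstm3 followed at -1.19. Gstk1, the mitochondrial and peroxisomal member, rose by 0.79 and the microsomal Mgst3 by 0.25. Other drug metabolizing genes went both ways, with 20 of 46 higher and 22 lower. Of 46 cytochromes P450, 15 were higher and 23 lower, including Cyp4a8 at 2.44, Cyp3a9 at 1.73 and Cyp2c12 at -1.92. The P450 reductase Por rose by 1.54 and the methyltransferase Nnmt by 1.92. Ephx1, the microsomal epoxide hydrolase, read 12.69 and 12.61 in vehicle and 10.07 and 10.15 in Dex (log2 fold change -2.54, SE 0.04), and the retinal dehydrogenase Aldh1a1 fell by 2.40; these last genes were named after their values were seen. Nr1i2 and Nr1i3, which encode the drug sensing receptors PXR and CAR, rose by 1.31 and 0.71.

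**Figure D4:**
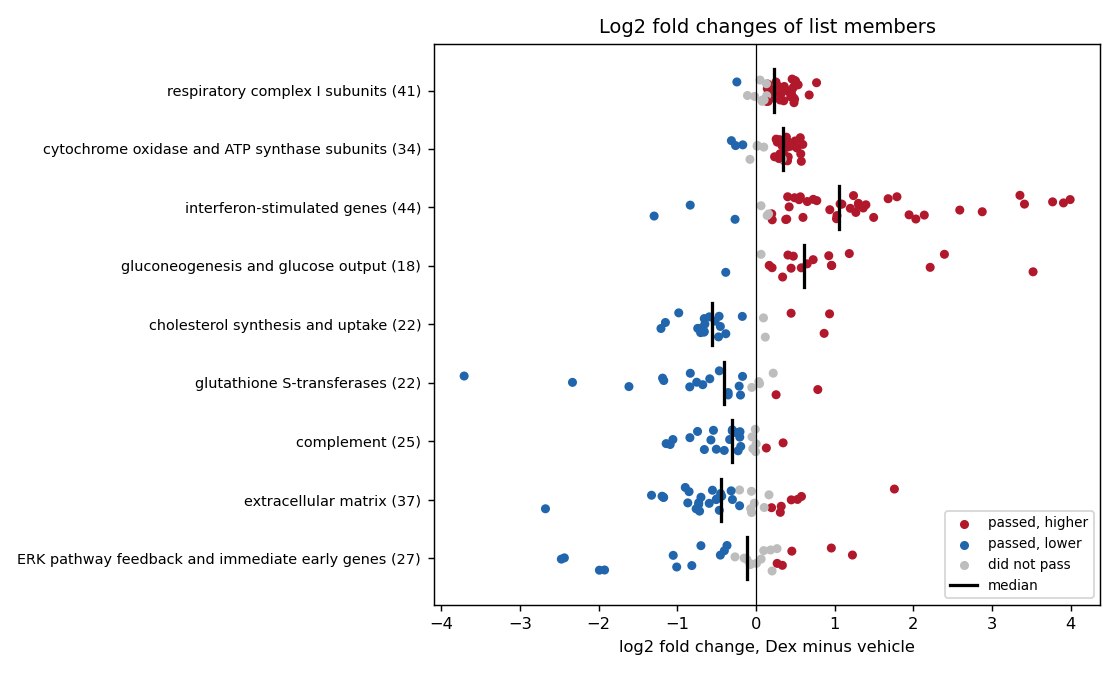
Log2 fold change, Dex minus vehicle, of each tested member of 9 gene lists, colored by whether and in which direction it passed, with the median as a black bar and points spread vertically for display. Of the complex I members 31 of 41 passed as higher and 1 as lower, Ndufaf5 at -0.24, while glutathione S-transferases reach down to -3.71 and interferon-stimulated genes up to 3.99.

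Interferon-stimulated genes, which encode antiviral proteins and their regulators, were higher by wide margins. Of 44 tested genes 38 were higher and 3 lower, with a median of 1.05. Oas1a, which makes the activator of RNase L, read 5.99 and 5.85 in vehicle and 9.88 and 9.94 in Dex (log2 fold change 3.99, SE 0.06, adjusted p = 2.24e-18 from limma). Usp18, which removes Isg15 from proteins, rose by 3.91 and Isg15 by 3.77. Irf7, a transcription factor of this response, read 7.61 and 7.70 in vehicle and 10.30 and 10.19 in Dex (log2 fold change 2.59, SE 0.05), and Ifi44 rose from 6.21 and 6.14 to 8.08 and 8.16 (log2 fold change 1.95, SE 0.08). The 3 that fell were Irf8 (-1.29), a factor of myeloid cells, Irf1 (-0.84) and Gbp2 (-0.27). Of 16 interferons, receptors and signal carriers 10 did not pass. The 3 higher and 3 lower were 18.8% each, beside 18% and 26.5% of all genes. Irf7, Irf9 (1.36) and Stat2 (0.38) rose, and Jak1 (-0.62), Tyk2 (-0.40) and Ifngr1 (-0.21) fell.

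Interferon regulatory factors are known to bind repeats of GAAA, and such repeats were found in about as many promoters of these genes as lacked them. RefSeq windows of 300 bases, from 250 before to 50 after the start, were searched on both strands for GAAANNGAAA, where N is any base. This motif was found in 18 of 35 interferon-stimulated genes with a window (51.4%). It was in 17 of 157 genes at least 2-fold higher (10.8%) and in 7 of 208 at least 2-fold lower (3.37%). The shares were 3.07% of the windows of genes tested and 3.77% of all 27457 windows. The 157 genes share members with the interferon-stimulated genes, among them Oas1a, Ifi44 and Irf7. The windows of Oas1a, Ifi44 and Irf7 are shown because these genes were described above and hold it, with the matches in capitals. In Ifi44 and Irf7 the matches lie on the other strand and are printed as their complement. In the GRCr8 build, given 5′ to 3′ along each gene, they lie on the plus strand at chr12:41330216-41330515 for Oas1a and on the minus strand at chr2:243303791-243304090 for Ifi44 and chr1:205799974-205800273 for Irf7. In Oas1a the capitals join 2 overlapping matches.
Oas1a: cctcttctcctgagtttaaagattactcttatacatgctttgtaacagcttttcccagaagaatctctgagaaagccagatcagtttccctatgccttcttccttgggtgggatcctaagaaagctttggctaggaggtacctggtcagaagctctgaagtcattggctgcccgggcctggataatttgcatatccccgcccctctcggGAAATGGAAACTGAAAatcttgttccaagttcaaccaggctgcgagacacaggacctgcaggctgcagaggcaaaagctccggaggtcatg
Ifi44: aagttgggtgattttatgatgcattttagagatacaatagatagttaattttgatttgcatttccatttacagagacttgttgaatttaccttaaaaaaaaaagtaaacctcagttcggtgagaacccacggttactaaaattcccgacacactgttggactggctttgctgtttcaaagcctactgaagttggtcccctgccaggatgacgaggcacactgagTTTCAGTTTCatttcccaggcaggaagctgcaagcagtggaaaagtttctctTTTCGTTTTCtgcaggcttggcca
Irf7: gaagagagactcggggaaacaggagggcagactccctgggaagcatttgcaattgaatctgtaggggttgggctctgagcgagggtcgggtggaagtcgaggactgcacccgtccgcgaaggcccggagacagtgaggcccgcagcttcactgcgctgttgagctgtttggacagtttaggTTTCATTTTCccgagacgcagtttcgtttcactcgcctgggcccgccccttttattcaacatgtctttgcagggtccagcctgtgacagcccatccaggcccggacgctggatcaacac

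A loose glucocorticoid response element, GNACANNNTGTNC, was found in 3 of the 157 windows of genes at least 2-fold higher (1.91%) and in 0 of the 208 of genes at least 2-fold lower. It was in 0.291% of the windows of genes tested and in 0.422% of all windows. The motif is its own reverse complement, and it was in 0 of 20 windows of the GR target list, which says only that these letters are not in this stretch. The 3 genes were Gnmt, glycine N-methyltransferase, which uses up S-adenosylmethionine, Orm1, the plasma protein orosomucoid, and Eva1c. Gnmt read 12.40 and 12.40 in vehicle and 13.54 and 13.59 in Dex (log2 fold change 1.16, SE 0.03), and Orm1 read 13.09 and 13.19 in vehicle and 14.35 and 14.33 in Dex (log2 fold change 1.20, SE 0.03). Eva1c was below background in vehicle and rose by at least 0.70. The windows of Gnmt and Orm1 are shown for the place of the match, which is after the start in Gnmt and 130 bases before it in Orm1, and they lie on the plus strand at chr9:21752032-21752331 and chr5:81788259-81788558. These genes were picked after their values and windows were seen. Another 2 motifs were searched. ATCACNCCAC, bound by sterol regulatory factors, was in 0 of 18 windows of cholesterol genes, 0.109% of those of genes tested and 0.251% of all. TTCNNNGAA, bound by STAT factors, was in 3 of 24 windows of the growth hormone list (12.5%), 6.76% of those of genes tested and 8.68% of all.
Gnmt: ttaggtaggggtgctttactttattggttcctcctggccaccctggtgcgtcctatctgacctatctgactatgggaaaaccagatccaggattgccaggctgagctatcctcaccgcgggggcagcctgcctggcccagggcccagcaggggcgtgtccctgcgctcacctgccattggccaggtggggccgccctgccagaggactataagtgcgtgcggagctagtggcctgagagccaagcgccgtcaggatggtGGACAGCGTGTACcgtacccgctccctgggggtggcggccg
Orm1: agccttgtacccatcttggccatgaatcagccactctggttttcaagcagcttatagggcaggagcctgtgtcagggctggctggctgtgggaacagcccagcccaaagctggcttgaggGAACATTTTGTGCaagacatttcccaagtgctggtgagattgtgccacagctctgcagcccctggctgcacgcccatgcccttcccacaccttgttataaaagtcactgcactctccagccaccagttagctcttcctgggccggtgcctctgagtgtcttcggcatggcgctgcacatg

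Genes of inflammation moved in both directions, and those of antigen presentation by class II were mostly lower. Of 34 inflammation genes 17 were lower, 9 were higher and 8 did not pass (median -0.17). Il33, an alarm cytokine, read 9.56 and 9.56 in vehicle and 7.26 and 7.06 in Dex (log2 fold change -2.40, SE 0.07). Cxcl12, which retains blood stem cells and lymphocytes, read 11.60 and 11.69 in vehicle and 9.27 and 9.30 in Dex (log2 fold change -2.35, SE 0.04), and its other probe sets gave -2.21 and -2.43. Ccl9 fell by 1.14 (SE 0.04), and 10 of 19 chemokines were lower in all. Those that rose included the receptor Il6r (1.19), the NF-kB inhibitor Nfkbia (1.11) and the chemokine Cxcl10, by at least 1.21. Of 12 class II and antigen uptake genes 8 were lower, led by RT1-Da (-2.24) and RT1-Bb (-2.08), and RT1-DMa, which helps load peptides, rose by 1.92. MHC class I genes went the other way, with 7 of 11 higher and 1 lower, and RT1-CE12 at 2.36.

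Markers of several non-hepatocyte cells were lower on the same arrays. The neutrophil markers S100a9 and S100a8 stood at -1.74 and -0.39, each or lower, and the log2 of the summed signal of 3 markers was 7.87 and 7.94 in vehicle and 6.38 and 6.36 in Dex. Of 6 Kupffer cell markers 3 were lower and Cd163 was higher (0.29), with the summed signal at 11.23 and 11.24 in vehicle and 11.12 and 11.10 in Dex. The B cell marker Cd79b changed by -0.57, the T and NK cell marker Cd4 by -0.27 without passing, and the other 8 T and NK cell markers were not above the array medians on 2 arrays. Of 5 sinusoidal endothelial markers 3 were lower, led by Stab2 (-0.70). Hepatocyte markers read 16.39 and 16.35 in vehicle and 16.43 and 16.46 in Dex, and the albumin gene Alb changed by 0.02. Of 3 erythrocyte markers Slc4a1 fell (-0.88), and the pancreas marker Cela1, which was at 9.85 and 9.94 in vehicle, fell by 0.94. Cela1 was the only 1 of 2 tested pancreas markers that passed. The pancreas markers Prss1 and Cpa1 were below background in both groups, with Prss1 at 3.68 and 3.72 in vehicle and 3.77 and 3.88 in Dex. The part of these cells in the falls of inflammation, class II and matrix genes was not tested.

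**Figure D5:**
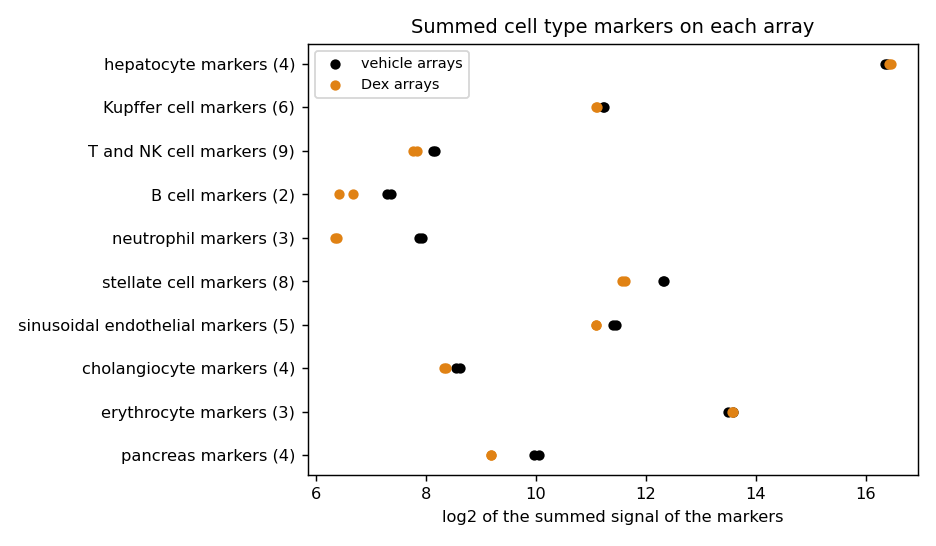
Log2 of the summed signal of the markers of each cell type or tissue on the 2 vehicle arrays (black) and the 2 Dex arrays (orange), with the number of markers on the array in brackets. Neutrophil, B cell, stellate and pancreas markers lie lower in Dex, and the pancreas sum lies close to Cela1 alone. T and NK cell, sinusoidal endothelial, cholangiocyte and Kupffer cell markers lie lower by less. Points of the hepatocyte and erythrocyte markers lie close together.

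Most genes of the extracellular matrix were lower, as were most markers of stellate cells, the cells that make most of the liver's matrix. Of 37 matrix genes 23 were lower and 7 higher (median -0.45), and of 7 stellate markers 5 were lower and 1 higher. Lum, lumican, stood at -1.01 or lower, Lrat, which stores vitamin A in stellate cells, at -1.24, and the collagens Col6a3 at -1.33 and Col14a1 at -1.19. The summed stellate markers read 12.32 and 12.33 in vehicle and 11.62 and 11.58 in Dex. Against this, Ccn2, a matrix protein induced by TGF-beta, read 6.09 and 6.29 in vehicle and 7.97 and 7.92 in Dex (log2 fold change 1.76, SE 0.11). Decorin, Dcn, rose by 0.58, the basement membrane collagen Col4a1 by 0.53, the protease inhibitors Timp1 and Timp3 by 0.45 and 0.32, Col18a1 by 0.31 and fibronectin, Fn1, by 0.20.

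Most complement, coagulation, serpin and acute phase genes were lower, with large single rises, and plasma carriers were mixed. Of 25 complement genes 18 were lower and 2 higher (median -0.30). C9, the last part of the membrane pore, read 13.38 and 13.44 in vehicle and 12.37 and 12.34 in Dex (log2 fold change -1.06, SE 0.03), and C1s, Mbl2 and C1r, which begin the cascade, changed by -1.14, -1.09 and -0.84. Cd59b (0.34), which blocks the pore, and Masp2 (0.13) rose. Of 22 coagulation genes 12 were lower (54.5%) and 4 higher (18.2%), beside 26.5% and 18% among all genes. Genes of this list were bright, with a median vehicle level of 12.49. Among the 4063 brightest probe sets in vehicle 1736 were lower and 1009 higher. Klkb1, plasma prekallikrein, read 11.62 and 11.60 in vehicle and 9.17 and 9.19 in Dex (log2 fold change -2.43, SE 0.04), while F5, Hrg, F12 and F10 rose by at most 0.19. Of 24 serpins 15 were lower (62.5%) and 3 higher (12.5%). Acute phase proteins had 14 of 22 lower and 6 higher, with A2m at 3.41 and Orm1 at 1.20 against the protease inhibitor Slpi at -2.27 and the iron hormone gene Hamp at -1.45. Of 26 plasma carriers and hepatokines 12 were lower and 7 higher (median -0.08), and 4 of those higher and 2 of those lower changed at least 2-fold. Agt, angiotensinogen, was among those that rose, by 1.04.

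Most genes of a list that joins the growth hormone axis with sex-biased liver genes were lower, and the axis alone was not counted. Of 30 genes of the growth hormone axis and of sex-biased liver expression 18 were lower and 4 higher (median -0.29). Cish, a feedback inhibitor induced by growth hormone, read 8.01 and 8.02 in vehicle and 6.03 and 5.98 in Dex (log2 fold change -2.01, SE 0.07), and a second probe set gave -1.43. Igfals, which carries IGF1 in plasma, changed by -1.53, and Bcl6, a repressor of STAT5 targets, rose by 0.95. Igfbp1, which binds IGF1 and is outside that list, read 7.91 and 8.17 in vehicle and 11.20 and 11.27 in Dex (log2 fold change 3.19, SE 0.07). Growth factors and receptors were mixed: of 31 genes 13 were lower (41.9%), 6 were higher (19.4%) and 12 did not pass. Among all genes 26.5% were lower and 18% higher, so the share of rises was near that of all genes. Single members were Gas6 (-1.48), Bmp2 (-1.20) and Fgf21 (1.48).

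Feedback genes of the ERK pathway, which relays growth factor signals, were mixed, with some large falls. Of 27 such genes 11 were lower (40.7%), 5 were higher and 11 did not pass (median -0.11), beside 26.5% lower among all genes. Dusp6, the phosphatase of ERK, read 9.93 and 9.92 in vehicle and 7.45 and 7.46 in Dex (log2 fold change -2.47, SE 0.05). Ccnd1, the cyclin that starts the cell cycle, read 8.99 and 8.94 in vehicle and 6.66 and 6.40 in Dex (log2 fold change -2.44, SE 0.08), and its other probe sets were lower as well, with -1.68 on the dimmest. Both genes were without overlap between the groups, as were 6801 of the 6806 probe sets that passed. Myc stood at -1.99 and Ier5 at -1.92, while Klf10 rose by 1.23, Dusp1, a phosphatase of stress kinases, by 0.96, Ier2 by 0.45, Junb by 0.33 and Ier3 by 0.27. Of 33 cell cycle genes 16 were lower and 4 higher, the latter Cdkn1a, Btg1 (0.46), Cdkn1b (0.30) and Tob1 (0.25), all of which are known as brakes. Many of those that fell, such as Cdk1, were near background, and 7 were lower and 4 higher when probe sets were kept by their mean over all arrays.

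Regulators of transcription, translation and protein folding changed in part, beside 18% higher and 26.5% lower among all genes. Of 19 hepatocyte transcription factors 6 were higher (31.6%) and 7 lower (36.8%), with Cebpb at 1.23 and Foxa2, Hhex and Onecut1 at -1.54, -1.20 and -0.97. Foxa2 read 9.07 and 9.07 in vehicle and 7.56 and 7.49 in Dex. Klf13 rose by 1.62 and Klf9 by 1.24. Of 27 nuclear receptors 9 were higher (33.3%) and 5 lower (18.5%). Of 15 clock genes 3 were higher (20%) and 5 lower (33.3%), near the shares of all genes, with Per1 at 0.73 and Nfil3 at -0.78. Of 18 genes that control translation through mTOR or stress kinases 10 were higher and 3 lower, with Depdc5 (0.56), Eif4ebp1 (0.55) and Eif4ebp2 (0.52) far behind Eif4ebp3. Of 33 genes of the unfolded protein response and chaperones 14 were higher (42.4%) and 11 lower (33.3%). Edem1, which sends misfolded glycoproteins to degradation, read 11.16 and 10.97 in vehicle and 13.25 and 13.22 in Dex (log2 fold change 2.17, SE 0.05), and Herpud1 rose by 1.83. The main chaperone of the endoplasmic reticulum, Hspa5, named after its value was seen, changed by -0.04 and did not pass. Of 25 genes of autophagy and ubiquitin handling 8 were higher and 3 lower, and the deubiquitinase Usp2 rose by 2.45.

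Solute carriers were the largest family, with 50 of 199 higher (25.1%) and 67 lower (33.7%), beside 18% and 26.5% among all genes. The citrate transporter Slc13a5 read 7.88 and 7.91 in vehicle and 9.66 and 9.63 in Dex (log2 fold change 1.75, SE 0.06), and its relative for sulfate, Slc13a4, read 10.09 and 10.14 in vehicle and 7.98 and 7.76 in Dex (log2 fold change -2.25, SE 0.06). These relatives thus moved in opposite directions. Slc41a3, a magnesium carrier, rose by at least 1.17. Of 18 amino acid transporters 6 were higher and 6 lower, with Slc3a1 at 1.27 and Slc38a2 at 1.07. Of 22 genes of iron, zinc and copper handling 12 were lower and 5 higher, with Steap3 at -1.33 after Hamp.

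For 34 genes 2 probe sets passed in opposite directions. Abca1 stood at 2.09 on one probe set and -0.67 on another, and Sgf29 at 1.46 and -1.20. Adipor2 stood at 0.46 and -0.82, Dtx4 at 0.17 or higher and -0.67, Pdgfrb at 0.49 and -0.50, and Myh1 at 0.53 and -0.45. For these genes the direction depends on the probe set read.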

How the data were processed

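Livers of 4 groups with 2 arrays each were measured, and groups were taken from the sample labels. The authors deposited log2 signals for 31099 probe sets. By the methods, only perfect-match probes were used, re-mapped to UniGene, and background was subtracted as in MAS. MAS5 is the tool in the submitters' processing notes, with no version. Array medians lay between 5.48 and 5.52, so the values were not normalized again. After removal of 57 control probe sets, 31042 remained, of which 16253 lay above the median of their array on at least 2 arrays. The platform annotation gives 20826 of the 31042 1 gene symbol, 436 several and 9780 none. The file gives no detection calls or depth, and the number of arrays limits the precision.

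Group means over all 8 arrays were fitted in R 4.3.3 by limma 3.58.1, using lmFit and a trended eBayes. The spread had 4 residual degrees of freedom beside 12.7 of the prior, and p-values were adjusted by Benjamini-Hochberg over the 16253. The fit was tested on simulated data. This replaced the one-sample test of the methods, which was run as an alternative. Each gene was read through its brightest probe set with 1 symbol. G6pc, whose probe sets carry several symbols, and Kitlg, with none kept, have no value. The background level was set after the values were seen.

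Genes named are the 15 largest rises and falls that passed without overlap between the groups' arrays, and up to 4 of the largest members of a list that passed. Members that went against most of their list are named only in part. Markers, genes of the study's array results and genes with probe sets in opposite directions are named too. The 37 lists, 20 families and 12 marker lists and these rules were chosen with earlier results of these data known. Lists are described by counts and medians and were not tested as sets. Alternatives changed the arrays in the fit, the filter, the normalization, the trend, the replicate block, the test and single replicates.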

Additional observations from a re-analysis of the deposited data

How the results depend on the processing

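The 6806 probe sets that passed became 6379 with only the 4 Dex and vehicle arrays, 7283 of 31042 without the filter on low values, 6585 with a filter on the mean, 6807 with quantile normalization (3227 higher and 3580 lower) and 6344 without the intensity trend. Leaving out 1 array gave 5451 to 6052, and 686 to 712 in place of the 695 that changed at least 2-fold. No probe set that passed in both changed direction in any of these. With the replicate block 6618 passed, but the letters do not pair the arrays, as the a minus b differences of vehicle and Dex had a correlation of -0.08. The methods' t-test, here on 2 log ratios, gave 4335 at a p of 0.05 or less and, after Benjamini-Hochberg, 31 in all, 5 at least 2-fold and 4 members of gene lists. None of the 30 largest changes passed that last test. All 30 passed with only the 4 arrays, without the filter, with quantile normalization, without the trend and with the replicate block. The filter on the mean kept 29 of them, and these passed. Leaving out 1 array kept the direction of each. The t-test at a p of 0.05 or less was not read for single genes. Members of lists that passed were 437 higher and 493 lower, and 474 and 448 with quantile normalization. Majorities turned for few lists: translation initiation factors (8 higher and 16 lower, then 13 and 12) and drug metabolizing genes (20 and 22, then 22 and 21) with quantile normalization, aminoacyl-tRNA synthetases (6 and 4, then 2 and 3) without vehicle or Dex replicate a, and mitochondrial ribosomal proteins as given above. With 2 arrays per group, no detection calls and an open number of livers, variation between animals is not measured with confidence. Small changes near background, such as those of cell cycle genes, rest on dim signals.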
